A study of Homo sapiens with 8 samples.

Results

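The genes described here are 10 noncoding host genes of small nucleolar RNAs (snoRNAs): SNHG1, SNHG5, SNHG7, SNHG8, SNHG12, SNHG15, SNHG16, GAS5, ZFAS1 and EPB41L4A-AS1. They were taken by name from the 17927 genes of the RNA-seq count table, which lists all 10, and all 10 passed the filter on low counts. They were chosen with their RNA-seq change known (SNHG1 and SNHG7 higher and SNHG5 lower after the knockdown), so their RNA-seq values are given as a description, with no p-value, and support nothing further. The cells were SH-SY5Y, an established human neuroblastoma line, carrying a short hairpin RNA against RPS29 (shRPS29, the knockdown) or a control hairpin (shCONT). RPS29 is a protein of the small ribosomal subunit. RNA-seq had 2 knockdown and 2 control libraries, made from total RNA. How many hairpin sequences or clones stand behind each arm, and whether replicates came from separate cultures, is not given in the sources used here, so errors measure only the spread between these libraries.

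A snoRNA guides chemical modification or processing of ribosomal and other RNA. Box C/D snoRNAs (SNORD genes) guide ribose methylation and box H/ACA snoRNAs (SNORA genes) guide pseudouridine formation. Most human snoRNAs are cut out of the introns of a host transcript. In a noncoding host the spliced exons that remain are exported, can be bound by ribosomes over short open reading frames, and are classic substrates of nonsense-mediated decay, the pathway that removes RNAs whose translation stops early. Several hosts, GAS5 the textbook case, begin with a 5′ terminal oligopyrimidine tract (TOP), a C followed by a run of pyrimidines, the feature through which mTOR signalling controls translation of ribosomal protein messenger RNAs.

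RefSeq (GRCh38.p14) places 37 snoRNA genes inside the 10 hosts, 27 SNORD, 9 SNORA and 1 with a provisional name, none of which is listed in the RNA-seq table. The values below therefore describe host RNA and say nothing of snoRNA levels. SNHG1 on chromosome 11 (62851978 to 62855885) holds 9, among them SNORD22 and the run from SNORD25 to SNORD31. GAS5 on chromosome 1 (173863901 to 173869045) holds 11, 10 of them box C/D, and SNHG5 on chromosome 6 (85677007 to 85678733) holds SNORD50A and SNORD50B. SNHG16 on chromosome 17 (76557764 to 76565348) holds the SNORD1 trio, and ZFAS1 on chromosome 20 (49278178 to 49289260) holds SNORD12, SNORD12B and SNORD12C. Hosts of box H/ACA snoRNAs alone are SNHG7 on chromosome 9 (136724594 to 136728184; SNORA17A and SNORA17B), SNHG8 on chromosome 4 (118278762 to 118279823; SNORA24), SNHG15 on chromosome 7 (44983023 to 44986696; SNORA9) and EPB41L4A-AS1 on chromosome 5 (112160526 to 112162501; SNORA13). SNHG12 on chromosome 1 (28578538 to 28582983) carries both classes, SNORD99 beside SNORA16A, SNORA44 and SNORA61.

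The transcript starts are shown because the TOP tract lies exactly there. RefSeq gives a start window for 9 of the 10 hosts. Each sequence runs from 10 bases before the annotated first base of the RNA to 20 bases into it, so that the RNA begins at the 11th letter. Capitals mark the unbroken pyrimidine run that begins at the first base, where that base is C.
SNHG5: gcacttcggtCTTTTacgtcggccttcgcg
ZFAS1: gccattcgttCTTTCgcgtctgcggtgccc
SNHG12: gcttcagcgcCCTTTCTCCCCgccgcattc
SNHG7: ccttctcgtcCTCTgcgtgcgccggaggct
SNHG1: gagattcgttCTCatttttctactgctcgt
SNHG8: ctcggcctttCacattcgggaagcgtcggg
GAS5: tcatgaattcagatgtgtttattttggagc
SNHG16: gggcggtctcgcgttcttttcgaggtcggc
EPB41L4A-AS1: tcatgaattctgtcgggtcccaaaatacgt
The windows, on GRCh38.p14, are chr6:85678714-85678743 for SNHG5, chr1:28581854-28581883 for SNHG12, chr9:136728165-136728194 for SNHG7, chr11:62855866-62855895 for SNHG1 and chr1:173869026-173869055 for GAS5, all on the minus strand. On the plus strand they are chr20:49278632-49278661 for ZFAS1, chr4:118278752-118278781 for SNHG8, chr17:76557754-76557783 for SNHG16 and chr5:112160516-112160545 for EPB41L4A-AS1. Of these 9 starts, 6 have C as the first base and 3 (SNHG5, ZFAS1 and SNHG12) a run of at least 5 pyrimidines from it. Such a run is in 4.04% of the 27305 starts of the RefSeq table, and in 4.33% of those of tested lncRNA genes. In the lists of ribosomal protein genes it is present in 18 of 24 small-subunit and 25 of 38 large-subunit starts. The run in SNHG7 is 4 bases long, and in SNHG1 an A interrupts it after 3. The annotated GAS5 start has no such run. RefSeq lists 50 GAS5 transcripts, and the table holds 1 start a gene, so the start used in these cells is not known from it. The starts shown for ZFAS1 and SNHG12 lie 464 and 1110 bases inside the outer edge of the annotated gene.

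RNA-seq libraries held between 17539104 and 19156104 counts. RPS29 itself had 2430 and 2872 counts in control cells, against 147 and 117 in knockdown cells, a log2 fold change of -4.40 (SE 0.115). CPM here is the count scaled to a common library size with TMM factors. All 10 noradrenergic neuroblastoma markers were listed, with a summed level of 5643 to 5819 CPM in control cells, against 6184 to 6363 CPM in knockdown cells, although TH, the enzyme of dopamine synthesis, had at most 4 counts in a library. Of 6 epithelial markers 4 were listed (5.80 to 7.91 CPM summed in the controls, 4.56 to 5.13 in the knockdown, KRT5 and KRT14 not listed). Of 6 blood cell markers 3 were listed (0.902 to 1.11 CPM against 1.88 to 2.31, CD3E and HBB among those not listed), and the 6 fibroblast and mesenchymal markers summed to between 290.4 and 313 CPM against 299 to 349.7. Their part in the results was not tested. The Ribo-seq table, with 14019 genes, lists 0 of the 10 hosts and 0 lncRNA genes, so no footprint value is given.

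SNHG1 and SNHG7 had the highest knockdown levels relative to control of the 10. SNHG1, the host of SNORD22, was at 42.4 and 33.9 CPM in control cells, against 121.8 and 93.6 CPM in knockdown cells, from 752 and 609 counts against 2376 and 1696. Both knockdown libraries lay above both controls, with group means of 38.2 ± 5.96 and 108 ± 19.9 CPM (SD, n = 2). The log2 fold change was 1.50 (SE 0.122), or 2.82-fold. In bulk RNA, more cells expressing a gene and more RNA per cell cannot be told apart. SNHG7 was at 34.5 and 30.9 CPM in control cells, against 94.2 and 84.4 CPM in knockdown cells. Its groups were also separate, with means of 32.7 ± 2.55 and 89.3 ± 6.95 CPM (SD, n = 2) and a log2 fold change of 1.45 (SE 0.0910), or 2.73-fold. Among the 1048 lncRNA genes tested, SNHG1 ranked 6 and SNHG7 10 from the highest log2 fold change.

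SNHG5 went the other way. It was at 175.9 and 204.3 CPM in control cells, against 72.1 and 71.1 CPM in knockdown cells, from 3121 and 3665 counts against 1406 and 1288. The knockdown libraries differed by less than the controls did, with means of 190.1 ± 20.1 against 71.6 ± 0.695 CPM (SD, n = 2). Its log2 fold change was -1.41 (SE 0.0828), a 2.66-fold lower level, which ranked 16 from the lowest among lncRNA genes. SNHG16, the host of the SNORD1 snoRNAs, was at 237.5 and 245.5 CPM in control cells, against 159 and 141.1 CPM in knockdown cells. Here too the groups did not overlap, and the log2 fold change was -0.69 (SE 0.0757).

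**Figure D1:**
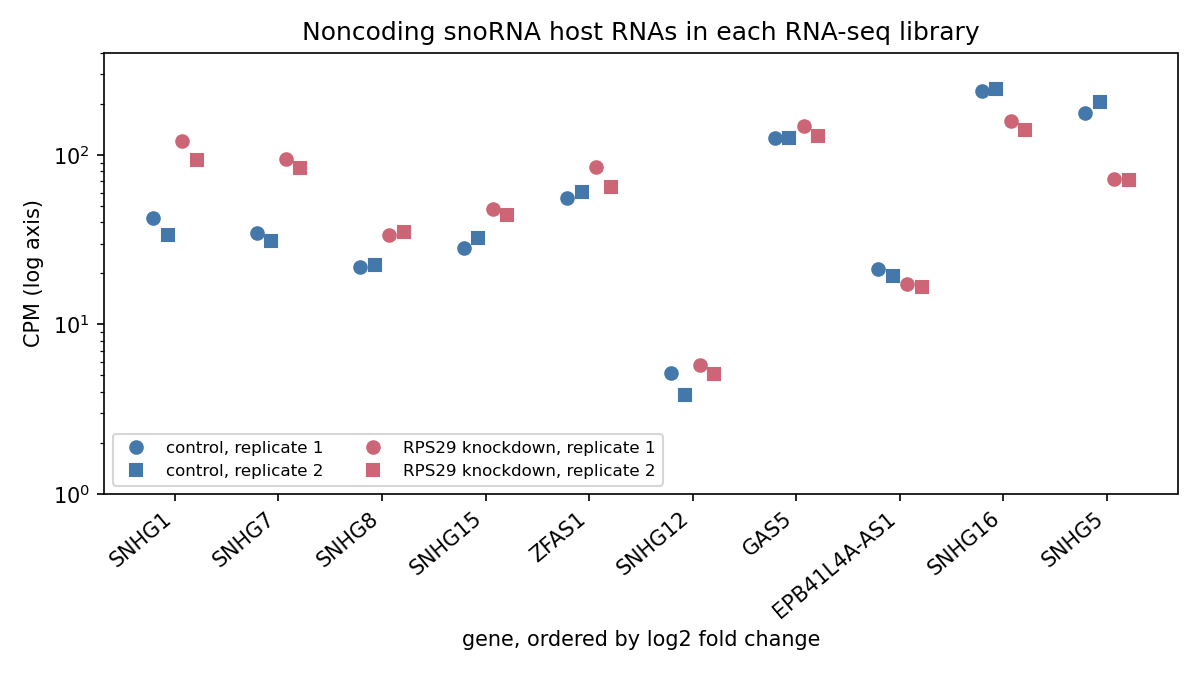
CPM (log axis) of each of the 10 hosts in the 2 control (blue) and 2 knockdown (red) RNA-seq libraries, circles for replicate 1 and squares for replicate 2, ordered by log2 fold change. SNHG1 sits near 34 to 42 CPM in control cells, against 94 to 122 in knockdown cells, SNHG5 at 176 and 204 against 72 and 71, and SNHG12 is the only host whose groups overlap.

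A second pair, SNHG8 and SNHG15, had smaller differences with little spread. SNHG8 was at 21.7 and 22.3 CPM in control cells, against 33.8 and 35.0 CPM in knockdown cells, a log2 fold change of 0.65 (SE 0.100). SNHG15 was at 28.3 and 32.6 CPM against 47.7 and 44.5 CPM, a log2 fold change of 0.60 (SE 0.0982). Each holds 1 box H/ACA snoRNA, and in each the 2 knockdown libraries lay above the 2 controls.

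The remaining hosts had smaller differences. ZFAS1, whose RNA starts beside ZNFX1 and holds the SNORD12 group, was at 55.8 and 60.4 CPM in control cells, against 84.7 and 64.4 CPM in knockdown cells, a log2 fold change of 0.36 (SE 0.109). This rests largely on knockdown replicate 1, without which the log2 fold change was 0.15. GAS5, named for its accumulation in growth-arrested cells, was at 126.4 and 125.3 CPM in control cells, against 148.9 and 129.8 CPM in knockdown cells, a log2 fold change of 0.15 (SE 0.0787), or 0.04 and 0.25 when knockdown replicate 1 or 2 was left out. EPB41L4A-AS1 was at 21.2 and 19.3 CPM against 17.2 and 16.6 CPM (log2 fold change -0.26, SE 0.118). SNHG12, with between 69 and 112 counts a library, was at 5.18 and 3.85 CPM against 5.74 and 5.13 CPM (0.27, SE 0.237), and its groups overlapped. It was at 0.07 without control replicate 2 and 0.50 without control replicate 1.

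In all, 6 of the 10 hosts had both knockdown libraries above both controls and 3 had both below, against 32.3% and 32.9% of all genes tested. By edgeR's quasi-likelihood test with an adjusted p below 0.05, 5 hosts passed as higher (SNHG1, SNHG7, SNHG8, SNHG15 and ZFAS1) and 2 as lower (SNHG5 and SNHG16). Over all 14723 genes tested 14.4% passed as higher and 16.3% as lower, and over the lncRNA genes 6.87% and 4.01%. These counts are a description, since the hosts were chosen on the same contrast. The median log2 fold change was 0.32 over the 10 hosts, 0.07 over lncRNA genes and 0.01 over all genes. Knockdown replicate 2 was lower than knockdown replicate 1 in 9 of the 10 hosts, SNHG8 being the exception, while 49.6% of all genes and 50.2% of lncRNA genes were lower there. In the controls replicate 2 was lower in 5 of 10. The difference between knockdown replicates was not particular to these hosts. Every gene of the ribosomal protein lists was also lower in knockdown replicate 2. So were the other noncoding hosts tested, except SNHG11, SNHG3, SNHG14 and MEG8.

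Ratios between hosts within a library do not depend on scaling. The ratio of SNHG1 to SNHG5 counts was 0.241 and 0.166 in control cells, against 1.69 and 1.32 in knockdown cells. The order of the pair in counts turned round, but counts are not corrected for transcript length. SNHG7 to SNHG5 went from 0.196 and 0.151 to 1.31 and 1.19. SNHG5 to GAS5 went from 1.39 and 1.63 to 0.484 and 0.548. The ratio of SNHG7 to SNHG1 was 0.814 and 0.910 in control cells, against 0.774 and 0.902 in knockdown cells, and its groups overlapped. SNHG1 and SNHG7 were chosen as higher and SNHG5 as lower. The shifts against SNHG5 and the steadier ratio of SNHG7 to SNHG1 therefore follow from the choice. The summed counts of the 10 hosts took 0.0733% and 0.0753% of the control libraries and 0.0800% and 0.0708% of the knockdown libraries, so that the sum overlapped between groups.

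**Figure D2:**
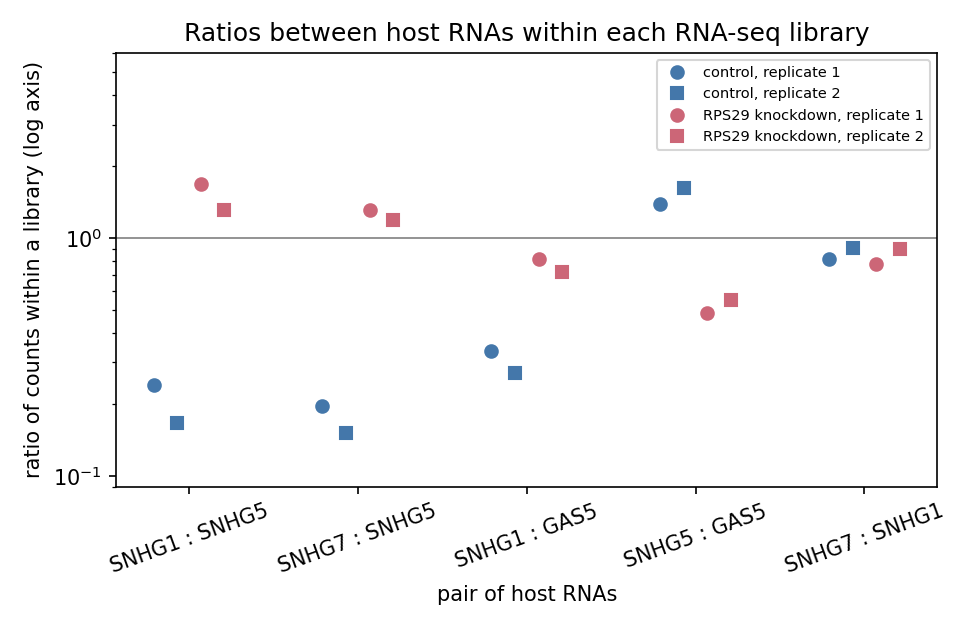
Ratio of counts between pairs of host RNAs within each library (log axis), controls in blue and knockdown in red. SNHG1 : SNHG5 lies at 0.241 and 0.166 in control cells, against 1.69 and 1.32 in knockdown cells, whereas SNHG7 : SNHG1 stays between 0.774 and 0.910 in the 4 libraries.

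GAS5, ZFAS1 and SNHG5, the hosts grouped as TOP RNAs when the set was chosen, did not share a direction. Their log2 fold changes were 0.15, 0.36 and -1.41, with a median of 0.15. The other 7 hosts ran from -0.69 to 1.50 with a median of 0.60. The difference of the medians was -0.45, and it was -0.36 and -0.49 with each knockdown library set alone against the controls. The ranges of the groups overlap, and no test was made on so few chosen genes. Leaving out control replicate 1 brought the difference to -0.35. Of the 3 hosts whose annotated start has a run of at least 5 pyrimidines, SNHG5 was at -1.41, SNHG12 at 0.27 and ZFAS1 at 0.36. SNHG7 and SNHG1, with runs of 4 and 3, were at 1.45 and 1.50.

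The core promoters of the 3 hosts with the largest changes are given for comparison, from 45 bases before the annotated first base to 5 bases into the RNA, so that the RNA begins at the 46th letter. Capitals mark TATAAA where it lies 16 to 40 bases before the start.
SNHG1: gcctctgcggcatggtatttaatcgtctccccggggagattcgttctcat
SNHG7: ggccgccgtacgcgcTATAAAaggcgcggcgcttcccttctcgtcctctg
SNHG5: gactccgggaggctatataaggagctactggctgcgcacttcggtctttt
They lie, on the minus strand of GRCh38.p14, at chr11:62855881-62855930, chr9:136728180-136728229 and chr6:85678729-85678778. TATAAA, 1 form of the TATA box, searched on the strand of the RNA in that interval, was found in SNHG7 alone of these 3, beginning 30 bases before the start. It is there in 2.54% of all starts in the table and in 1.56% of those of tested genes. Other forms of the TATA box were not searched, so the letters tatataag in the same interval of SNHG5 are not marked. SNHG7 is therefore not set apart from SNHG5 by this search. In the whole windows of 300 bases, searched on both strands, TATAAA was in SNHG7 and, 39 bases after the start on the opposite strand, in SNHG1. It was in 12.0% of all windows and 5.71% of those of tested genes. CACGTG, the E-box, was in 1 of 9 hosts (SNHG7, 122 bases before the start) against 7.43% of all windows and 9.92% of those of tested genes. CCAAT was in SNHG5, 80 bases before the start, and in GAS5, against 35.7% of all windows and 36.5% of those of tested genes. TGACGTCA and CCGGAAGT were in 0 of 9, against 1.98% and 4.44% of all windows and 3.28% and 8.46% of those of tested genes. These letter matches are a description of the windows.

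Ribosomal protein messenger RNAs, which carry TOP tracts, were lower as a group. Over all genes tested, for comparison, 14.4% rose and 16.3% fell. Of 31 small-subunit protein genes 23 fell and 0 rose, and their median stood at -0.54 on the log2 scale. The value for RPS9 was -1.19 (SE 0.0794) and for RPS25 -0.92. In the large subunit 40 of 47 genes fell and 0 rose, with a median of -0.50 and RPL23A at -0.94. Of 19 translation factors and related TOP genes 12 fell and 1 rose, with a median of -0.44 and the initiation factors EIF4B at -1.25 and EIF3L at -0.96. EIF3K, the 1 that rose (0.22), was not called without control replicate 1, control replicate 2 or knockdown replicate 1. Without knockdown replicate 2, the translation factors EIF3K and EIF3M and the small-subunit genes RPS2 and FAU were called higher. The large-subunit count lower ran from 29 to 46 over the libraries left out. SNHG5 was below the median of each of these lists, and GAS5 and ZFAS1 were above them. Across all tested genes with a RefSeq start, those with a run of at least 5 pyrimidines had a median of -0.06 (n = 618) and those without C at the start 0.01 (n = 10254). With the TOP lists and the 10 hosts left out, the values were -0.03 (n = 562) and 0.01 (n = 10233). Among lncRNA genes other than the 10 hosts, 32 had such a run, with a median of -0.05. Of the 32, SNHG32 (0.81) and DNM3OS (0.64) rose and LINC01237 (-1.73) fell, named after their values were seen.

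Another 19 noncoding snoRNA hosts were listed from background knowledge, of which 18 are in the table and 15 passed the count filter. Although they are named as hosts, RefSeq places no snoRNA gene inside SNHG10, SNHG20, SNHG21 or SNHG22. SNHG17, the host of SNORA71 copies, had 360 and 306 counts in control cells, against 760 and 612 in knockdown cells, a log2 fold change of 0.96 (SE 0.117, edgeR adjusted p = 3.11e-05). Its neighbour SNHG11, also on chromosome 20, went from 182 and 187 to 346 and 340 counts (0.82, SE 0.130, edgeR adjusted p = 2.72e-04). SNHG32, which holds SNORD48 and SNORD52, went from 1496 and 1410 to 2966 and 2437 counts (0.81, SE 0.0813, edgeR adjusted p = 5.30e-06), and SNHG20, without an annotated snoRNA, was at 0.74 (SE 0.154, edgeR adjusted p = 0.00217). SNHG6 fell slightly, at -0.30 (SE 0.0797, edgeR adjusted p = 0.0108), and was not called without control replicate 2 (adjusted p = 0.198). SNHG20 and SNHG6 are named although the rule for named genes did not take them.

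The other 10 hosts of that list did not pass the test, so that 4 of 15 rose and 1 fell. SNHG29, with more counts than any other host of that list, had 7308 and 7319 in control cells, against 7504 and 5841 in knockdown cells, a log2 fold change of -0.21 (SE 0.0833, edgeR adjusted p = 0.0660). Without knockdown replicate 1 it was at -0.35 and passed as lower. DANCR was at 0.22, SNHG3 at -0.05 and SNHG14 at 0.03. The share that rose was 26.7%, against 6.87% of lncRNA genes and 14.4% of all genes tested. The share that fell was 6.67%, against 4.01% and 16.3%. The median over the 15 was 0.03, beside 0.07 over lncRNA genes. The 4 that rose did so under each alternative setting that was run.

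**Figure D3:**
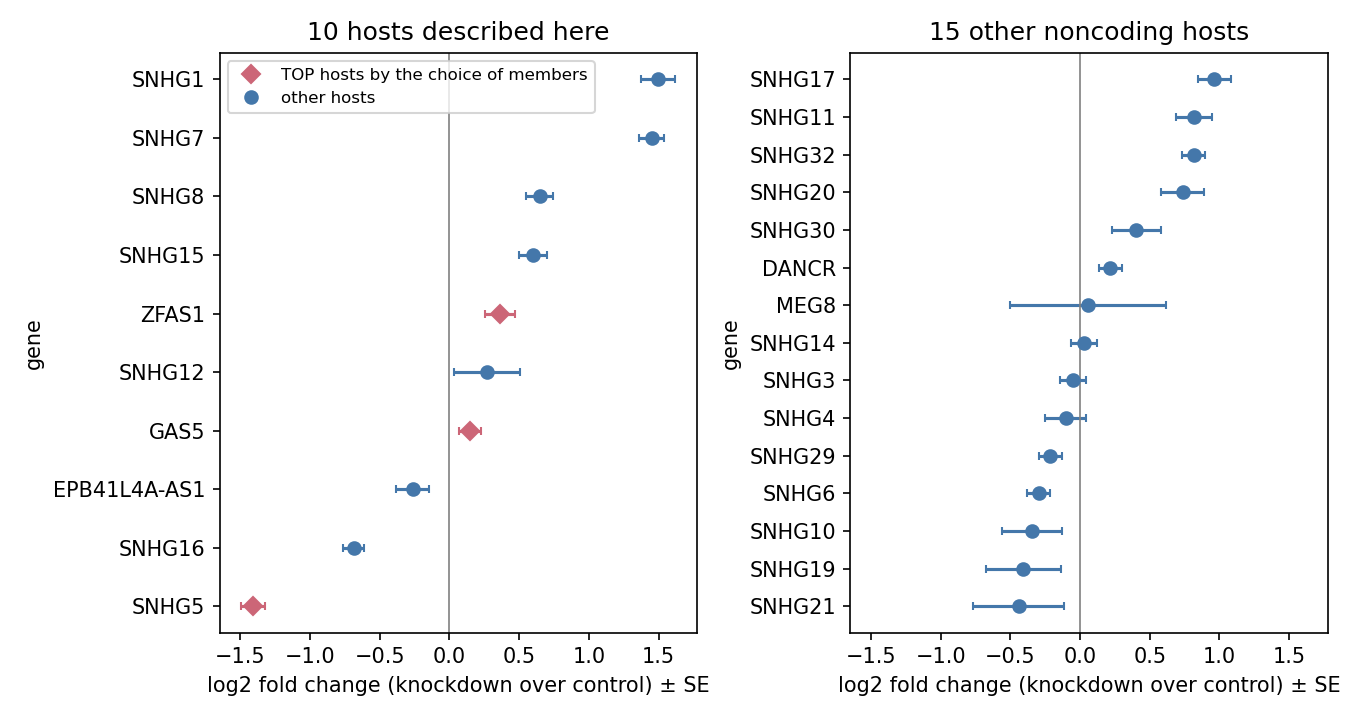
Log2 fold change (knockdown over control) with its standard error for the 10 hosts described (left; red diamonds are GAS5, ZFAS1 and SNHG5) and for the 15 other noncoding snoRNA hosts that passed the count filter (right). Values run from -1.41 (SNHG5) to 1.50 (SNHG1) on the left and from -0.44 (SNHG21) to 0.96 (SNHG17) on the right.

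Genes beside or over the hosts were set against them. All genes within 5000 bases that the RNA-seq table lists were taken, a choice made after the data were seen. SLC3A2, the heavy chain of amino acid transporters, lies 224 bases from SNHG1. It had 1446 and 1717 counts in control cells, against 2815 and 2578 in knockdown cells, a log2 fold change of 0.69 (SE 0.0829, edgeR adjusted p = 2.54e-05). PRSS12, a secreted serine protease of neurons, lies 215 bases from SNHG8. It went from 3017 and 3296 to 5125 and 4898 counts, a log2 fold change of 0.59 (SE 0.0713, edgeR adjusted p = 2.80e-05), beside 0.65 for SNHG8. ZNFX1, 121 bases from ZFAS1, was at 0.19 (SE 0.120, edgeR adjusted p = 0.254), and reached 0.34 and passed as higher without knockdown replicate 1.

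Further neighbours overlap a host. DIPK1B shares 149 bases with SNHG7 and was at 0.10 (SE 0.0823, edgeR adjusted p = 0.384) beside 1.45 for the host. TRNAU1AP shares 8 bases with SNHG12 and was at -0.22 (SE 0.114, edgeR adjusted p = 0.173), passing as lower without knockdown replicate 1 (-0.33). ZBTB37, which shares 964 bases with GAS5, was at -0.04 (SE 0.136, edgeR adjusted p = 0.844), and EPB41L4A, which spans EPB41L4A-AS1 in full, was at 0.08 (SE 0.292, edgeR adjusted p = 0.873). GAS5-AS1, an antisense RNA at the edge of GAS5, had 16 and 22 counts in control cells, against 3 and 0 in knockdown cells (edgeR adjusted p = 0.00334), while GAS5 itself was at 0.15. The kit keeps strand, but whether the counting used it is not given in the sources used here, so reads of overlapping genes may not be told apart. PRCD, 4184 bases from SNHG16, was at -0.03, and MYO1G and ST6GALNAC2 had at most 4 counts in a library.

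**Figure D4:**
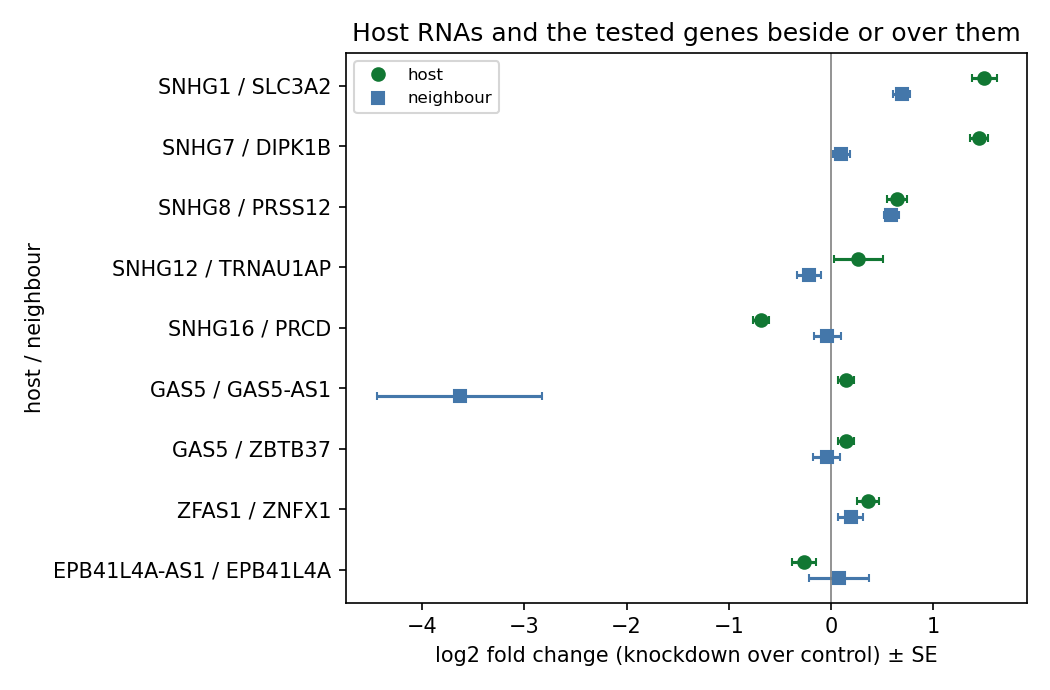
Log2 fold change with its standard error for each host (green circles) and the tested gene beside or over it (blue squares). SLC3A2 (0.69) and PRSS12 (0.59) are above 0 together with SNHG1 (1.50) and SNHG8 (0.65), DIPK1B stays at 0.10 beside SNHG7 (1.45), and GAS5-AS1, which rests on 3 and 0 knockdown counts, lies far below 0 beside GAS5 (0.15).

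Proteins that package snoRNAs were higher in part. Of 18 proteins of box C/D and H/ACA particles and their assembly factors 7 rose and 1 (SHQ1, -0.23) fell, with a median of 0.22. These are shares of 38.9% and 5.56%, against 14.4% and 16.3% of all genes tested. The assembly factor ZNHIT6 was at 0.74 (SE 0.107, edgeR adjusted p = 1.31e-04), and NOP58 and NOP56, core proteins of box C/D particles, at 0.48 and 0.35. Without control replicate 1 or control replicate 2 the count of those higher was 4 and of those lower 0, with total-count scaling 11 and 0, and without knockdown replicate 1 the count lower was 3. Protein-coding snoRNA hosts other than ribosomal protein genes had no common direction: 7 of 26 rose and 7 fell, with a median of -0.01. Each is a share of 26.9%, against the same 14.4% and 16.3% of all genes. Of those that fell, TPT1, EEF2, RACK1 and EEF1B2 are also in the list of TOP translation factors. Of those that rose, NOP58, NOP56 and DKC1 are also among the particle proteins above. TPT1, a TOP messenger RNA that hosts SNORA31, was at -1.14 (SE 0.0914) and HSPA8, a chaperone, at -0.53, while NOP58, which codes for a snoRNP protein as well, was at 0.48. The count lower was 2 when either control replicate was left out, and the count higher 4 without control replicate 1.

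Factors of nonsense-mediated decay had a median close to that of all genes. Of 22 factors 6 rose and 3 (ICE1, EIF4A3 and SMG8) fell, with a median of 0.03. These are shares of 27.3% and 13.6%, against 14.4% and 16.3% of all genes tested. UPF3B, a bridge to the exon junction complex, was at 0.64 (SE 0.103) and MAGOH, a core protein of that complex, at 0.45, while ICE1 was at -0.70 (SE 0.0887). EIF4A3 (-0.21) and SMG8 (-0.22) were not called when either control replicate was left out, nor with total-count scaling or DESeq2, and ICE1 was then the 1 factor lower. The count higher was 4 when either control replicate was left out. Of 24 protein-coding genes with transcripts described as targets of the pathway 9 rose and 2 (ASNS, -0.28, and SRSF7, -0.23) fell, with a median of 0.12. These are shares of 37.5% and 8.33%, against the same 14.4% and 16.3% of all genes. CDKN1A, the cell-cycle inhibitor p21, was at 1.41, DDIT3, a stress transcription factor, at 2.62 and GADD45A, a growth arrest gene, at 0.87. Those 3 genes are also known to be transcribed in answer to stress. The count lower was 0 when either control replicate was left out or with total-count scaling, and 5 without knockdown replicate 1.

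**Figure D5:**
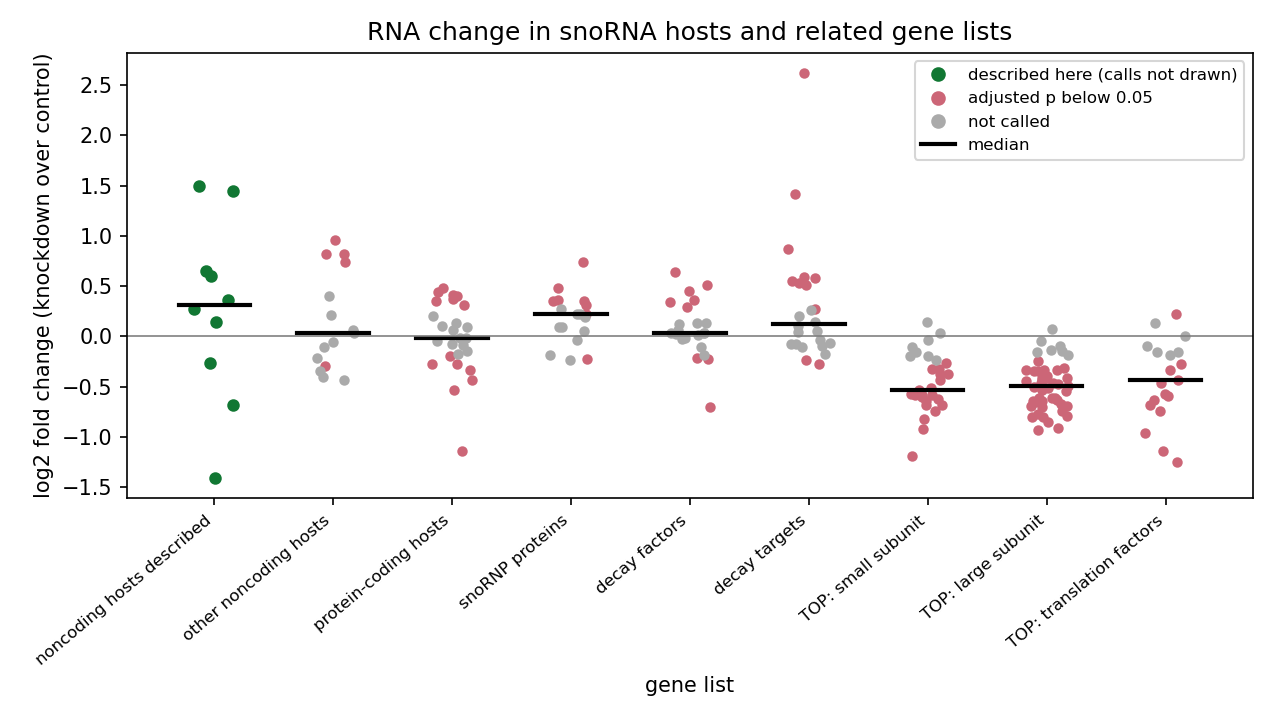
Log2 fold change of each tested member of 9 gene lists, with the median as a black bar. The 10 hosts (green, drawn without their calls) run from -1.41 (SNHG5) to 1.50 (SNHG1). Both ends are hosts chosen with these changes known, so the range is not compared with that of other lists. The medians of the 3 TOP lists lie at -0.54, -0.50 and -0.44.

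Pattern across the 4 RNA-seq libraries was compared over 10152 protein-coding genes with a mean of at least 10 CPM in either group. Distances are Euclidean, between centred log2 (CPM + 1) values. The genes nearest to SNHG7 were PDE10A, ZFAND2A and STAC, at 0.0684, 0.207 and 0.233. SNHG1 was nearest to PDE10A (0.256), ZFAND2A (0.313) and COX19 (0.318), so that PDE10A and ZFAND2A stood beside both. PDE10A, a cyclic nucleotide phosphodiesterase, was at 8.73 and 7.91 CPM in control cells, against 24.9 and 23.7 CPM in knockdown cells. SNHG5 was nearest to TSPAN13 (0.110), ANKRD27 (0.126) and INSIG1 (0.130). PDE10A and ZFAND2A reached 10 CPM in knockdown cells alone, and ANKRD27 in control cells alone. INSIG1, which holds back sterol synthesis, was at 37.8 and 39.2 CPM in control cells, against 14.2 and 14.7 CPM in knockdown cells. With 4 libraries in 2 groups, genes with a like difference between the groups are near each other by construction.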

How the data were processed

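Counts per gene symbol from RNA-seq were used as deposited; they are whole numbers, and no normalization by the authors was seen. The submitters' processing notes name featureCounts, STAR, Salmon, Bowtie2, Trim Galore and hg38. Their roles and versions, the annotation and any strand setting are not stated there. Types, positions and start sequences come from RefSeq (GRCh38.p14), to which 17693 of 17927 symbols matched.

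The 2 knockdown libraries were compared with the 2 controls in edgeR 4.0.16 (R 4.3.3) by its quasi-likelihood F test, with TMM scaling, the filterByExpr filter and Benjamini-Hochberg adjustment over 14723 genes. "Called", "rose" and "fell" mean an adjusted p below 0.05. The SE is the size of the log2 fold change over the root of F. The test was run on simulated data first. Alternatives were RLE or total-count scaling, DESeq2 1.42.0, limma-voom (limma 3.58.1), no filter or at least 50 counts, each library left out, and a replicate block.

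The hosts and lists were chosen with earlier results of these data known. Besides the hosts, the rule named RPS29, the 3 genes of smallest p in each list, snoRNAs inside hosts and pattern neighbours; some, marker genes among them, were left out for space. Other genes, neighbours of hosts included, were named, and motifs chosen, after values were seen. The planned footprint comparisons were not run, because the Ribo-seq table lists none of the hosts. A few list genes are not reported here.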

Additional observations from a re-analysis of the deposited data

How the results depend on the processing

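The 10 hosts kept the sign of their log2 fold change under all 11 alternatives. They were chosen on this contrast, so their steady signs and calls are a description and no support. SNHG1 ranged from 1.29 to 1.68, SNHG7 from 1.36 to 1.53 and SNHG5 from -1.51 to -1.30. The calls of 8 hosts did not change. ZFAS1 was not called without control replicate 1 (0.31) or knockdown replicate 1 (0.15), and GAS5 was called without knockdown replicate 2 (0.25) and with total-count scaling (0.22). Hosts called higher numbered 4 to 6 and lower 2. Leaving out single libraries gave 1225 to 2739 genes higher and 1496 to 2876 lower, 0 to 2 other noncoding hosts lower, and a difference of TOP and other hosts between -0.53 and -0.35. Total-count scaling gave 3002 genes higher and 1777 lower, against 2126 and 2396. With the replicate block, 1764 genes were higher and 2048 lower, 5 and 2 hosts were called, and the difference of medians was -0.46. The block also lowered the count of protein-coding hosts that fell from 7 to 4, decay factors from 3 to 1, decay targets from 2 to 1 and snoRNP proteins from 1 to 0, and EIF3K was not called (0.22, edgeR adjusted p = 0.0837). Deviations of libraries with the same replicate number correlated at -0.084 across genes, and nothing in the labels ties the numbers. With 2 libraries a group, small changes of low-count hosts such as SNHG12 were not detectable. No Ribo-seq alternative gave a value, since that table lists none of the hosts.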
